A study of Mus musculus with 4 samples.

Results

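The megakaryocyte and platelet genes described here are 9 symbols, Itga2b, Clec1b, Pf4, Ppbp, Gp1ba, Gp1bb, Gp9, Gp6 and Treml1, out of 23337 in the deposited count tables, and all 9 were found in each of the 4 libraries. They were chosen by symbol for their known function, and also because Itga2b and Clec1b had been seen to be higher after culture. Values of the culture comparison are therefore a description of why these genes were picked and support nothing. The libraries hold RNA of lymphatic endothelial cells of mouse embryos at prenatal day 14.5. One genotype was wild type, and the other (mutant) carried a deletion on both copies. Per the labels' protocols, cells with LYVE1 and VECAD and without CD45, the pan-leukocyte protein, were sorted from the dorsal anterior part of the body, with a whole litter pooled for each genotype. One part of each sort was lysed at once (before culture), and the other spent 7 days on a feeder layer of OP9, a stromal line from mouse that supports blood formation, with FLT3L, IL3 and SCF at 100 ng/ml each, and sorted again for LYVE1 and VECAD (after culture), without a stated exclusion of CD45. The culture was meant to test for the ability to form blood, per the design text. The title names an enhancer bound by GATA2, which in the published study is an enhancer of Prox1; the sources used here do not give the strain or the position of the deletion. Each group holds 1 library, so differences cannot be set against a spread between replicates, p-values are left out, and each comparison is one of libraries.

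Megakaryocytes are the bone marrow and fetal liver cells that shed platelets. Platelets bind vessel matrix and each other through surface receptors and release chemokines from their alpha granules. CLEC-2, the product of Clec1b, is the platelet receptor for podoplanin on lymphatic endothelium, and in the mouse embryo this contact keeps blood out of the lymphatic vessels. The integrin alphaIIb chain (CD41), the product of Itga2b, is made by platelets and also by the earliest blood progenitors that leave endothelium, and the CLEC1B protein is also found on the sinusoidal endothelium of human liver. Expression of these genes thus does not by itself name a cell type.

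The stretch of 250 bases upstream of the RefSeq start site is shown for 4 members: Itga2b and Clec1b, which carried nearly all of the members' counts after culture, Gp1ba, the next above background there, and Pf4, a gene used to mark megakaryocytes. All are 5′ to 3′ on the gene's strand, from RefSeq on GRCm38.p6. Capitals mark GATAA, the core of sites bound by GATA factors, and GGAAG, a core of sites bound by ETS factors such as FLI1, on either strand (TTATC and CTTCC where the match is on the other strand). The 2 motifs overlap nowhere in these windows.
Itga2b, chr11:102469884-102470133, minus strand: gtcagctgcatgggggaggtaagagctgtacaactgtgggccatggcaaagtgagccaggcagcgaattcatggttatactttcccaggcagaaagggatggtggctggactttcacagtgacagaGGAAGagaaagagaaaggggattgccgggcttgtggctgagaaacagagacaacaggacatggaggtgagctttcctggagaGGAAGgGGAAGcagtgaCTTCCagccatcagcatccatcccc
Clec1b, chr6:129397047-129397296, plus strand: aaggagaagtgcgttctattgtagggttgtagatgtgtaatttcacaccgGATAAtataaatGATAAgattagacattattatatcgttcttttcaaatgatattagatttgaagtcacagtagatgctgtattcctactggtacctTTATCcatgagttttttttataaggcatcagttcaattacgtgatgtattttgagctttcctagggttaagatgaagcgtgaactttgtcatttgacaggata
Gp1ba, chr11:70638872-70639121, plus strand: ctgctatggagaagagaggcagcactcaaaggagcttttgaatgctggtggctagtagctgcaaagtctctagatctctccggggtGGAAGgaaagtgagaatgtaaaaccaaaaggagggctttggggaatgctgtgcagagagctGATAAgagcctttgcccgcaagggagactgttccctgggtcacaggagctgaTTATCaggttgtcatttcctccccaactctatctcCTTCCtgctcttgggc
Pf4, chr5:90772185-90772434, plus strand: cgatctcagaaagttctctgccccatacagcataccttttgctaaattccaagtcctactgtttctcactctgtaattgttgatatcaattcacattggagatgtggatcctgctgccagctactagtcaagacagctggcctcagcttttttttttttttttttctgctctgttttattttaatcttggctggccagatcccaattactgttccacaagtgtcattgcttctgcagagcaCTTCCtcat
GATAA was in the windows of 4 of the 9 members (Clec1b, Gp1ba, Gp9 and Gp6) and in 22.6% of all 32851 windows of this length in the RefSeq table. GGAAG was in 7 members and in 64.1% of all windows. Both were in 2 members (Gp1ba and Gp9) and in 13.2% of all windows. The Clec1b window held GATAA 3 times and GGAAG not at all, while the Itga2b window held GGAAG 4 times and GATAA not at all. The 2 members that were higher after culture thus shared neither motif within these windows. The result depends on the start site used. The Itga2b window lies mostly inside the gene as GENCODE annotates it, up to 102470122 on the minus strand, and a window from that start was not searched. A match is only a run of letters, and no binding was measured.

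Gene counts ranged from 1694669 (wild type, after culture) to 7943587 (mutant, before culture). Levels are CPM scaled by TMM, the trimmed mean of M values, that is, counts relative to the scaled total of the library, with exact Poisson 95% intervals that cover counting error only. Reads in genes that are silent outside sensory neurons set a background: all counts of 1431 olfactory and vomeronasal receptor genes, divided by their coding length. This rate was 6.64 and 8.34 counts per kb in wild type and mutant libraries before culture but 0.537 and 1.61 after it. It is not scaled for depth. Gene counts also fell, from 3987150 to 1694669 in wild type and from 7943587 to 3931557 in mutant libraries. Part of the fall in the rate thus goes with depth. Read pairs in no gene made up 66.5% and 53.6% of all pairs before culture and at most 30.3% after it. Pairs that did not align made up 21.4% and 34.1% before culture and 67.6% and 56.2% after it. The share in no gene is one of all pairs, so it also falls as the share not aligned rises. The part of these changes in the results was not tested. Each member was read against the counts that its exon length would gather at the receptor rate. The receptor counts may include reads in untranslated exons, which would make that rate, and so every background given here, too high. The size of this effect was not tested. Of the markers that define the sorted cells, Lyve1 had 5341 and 8196 counts before culture and 4843 and 9168 after it in wild type and mutant, whereas the lymphatic gene Pdpn had 435 and 915 before and 0 and 8 after.

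Before culture, most of the 9 genes lay at the level of the background. In bulk RNA, fewer cells of a type and less RNA per cell cannot be told apart, which holds for all values here. The 7 members other than Itga2b and Clec1b held 95 counts together in the wild type library, where background alone would give 98.2, and 167 in the mutant library, where it would give 123. Both backgrounds include the full exon length of Gp1bb, most of which is shared with another gene. Itga2b had 73 and 132 counts in the wild type and mutant libraries, 2.02 and 2.90 times its background over all annotated exons. Clec1b had 22 and 34 counts, which is 0.649 and 0.799 times the background over all annotated exons but 3.04 and 3.74 times that over its longest coding transcript, because a retained intron makes up most of its annotated exon length. Pf4, a chemokine of the alpha granule, had 17 and 22 counts, 3.55 and 3.66 times its background. It was the only member above the 95th percentile of the receptor genes in both libraries when all exons were counted. With the longest coding transcript as length, Itga2b and Clec1b were above it too. This mark is not a high one. Genes close to it in level stood at percentile 55.5 and 44.5 of all genes before culture in wild type and mutant. After culture, genes close to it stood at percentile 52.1 and 42.5. Per kb of the longest coding transcript, Pf4 stood at 5.80 CPM (3.38 to 9.29), Itga2b at 4.26 CPM (3.34 to 5.36) and Clec1b at 4.05 CPM (2.54 to 6.13) in the wild type library. These 3 neighbours in the order of levels overlap in their intervals.

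After culture, Itga2b and Clec1b were far above all other members in both genotypes. Itga2b, which lies at 102453297 to 102470122 of chromosome 11 (mm10, minus strand), had 242 counts in the wild type library and 585 in the mutant library. Its level was 14.7 CPM (wild type) and 14.3 CPM (mutant) before culture and 176 CPM and 175 CPM after it. Both cultured libraries were thus higher than both uncultured ones, which is the contrast on which the gene was picked. The fold after over before culture was 12 (9.21 to 15.8) in wild type and 12.2 (10.1 to 14.9) in mutant cells, or 23.6 and 18.3 with background over all exons subtracted.

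Clec1b, on the plus strand of chromosome 6 from 129397297 to 129409335, had 180 counts in the wild type and 374 in the mutant library after culture. Its level was 4.42 CPM (wild type) and 3.69 CPM (mutant) before culture and 131 CPM and 112 CPM after it. Clec1b too was picked on this contrast. The fold was 29.7 (19.0 to 48.5) in wild type and 30.3 (21.3 to 44.4) in mutant cells, or 44.1 and 41.2 with background over the longest coding transcript subtracted, a length chosen after seeing the data. By fold, Clec1b ranked 16 among 17154 genes that passed the count minimum in the wild type comparison and 11 among 18807 in the mutant comparison, and Itga2b ranked 73 and 60. Per kb of the longest coding transcript, Clec1b stood at 120 CPM (103 to 139) in the wild type library after culture, above Itga2b at 51.2 CPM (45.0 to 58.1), and the order was alike in the mutant library, with 103 CPM (92.5 to 114) and 50.9 CPM (46.9 to 55.2).

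**Figure D1:**
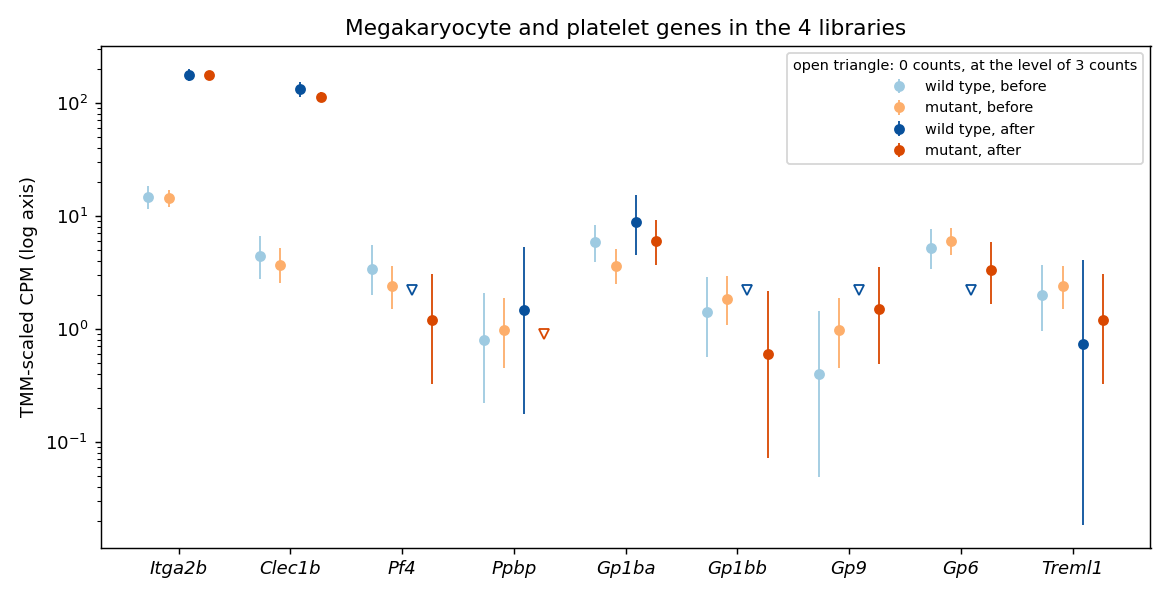
Level in TMM-scaled CPM (log axis) of the 9 genes in the 4 libraries, 1 point per library, with bars for the exact Poisson 95% interval; an open triangle marks 0 counts, drawn at the level of 3 counts. Itga2b and Clec1b stand between 112 and 176 CPM after culture, and no other member exceeds 8.73 CPM.

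After culture Itga2b and Clec1b together made up 96.6% (wild type) and 95.4% (mutant) of the members' counts, against 50.0% and 49.8% before it. Genes were called by counting error alone: the 95% interval of the fold had to lie wholly past 2-fold, and either library compared had to hold 20 counts or more. Of the 4 members that passed the minimum in the wild type culture comparison, 2 were called higher and 0 lower, where 8.17% of all genes tested were called higher and 5.77% lower. Of the 6 members that passed it in mutant cells, 2 were called higher and 0 lower, where 5.19% of all genes were called higher and 3.62% lower. The members were picked on this contrast, so nothing is read from these counts. Scaled on total gene counts, all genes split into 516 higher and 2983 lower in wild type cells and 493 and 1850 in mutant cells, in place of 1401 and 989 and of 976 and 680. Itga2b and Clec1b were called higher on that scale too, and Gp6 was called lower in wild type cells.

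Member genes of the platelet receptors that bind von Willebrand factor and collagen had at most 20 counts each after culture. GPIb-IX, the receptor for von Willebrand factor, is built from the products of Gp1ba, Gp1bb and Gp9. Gp1ba, its ligand-binding chain, had 29 and 33 counts before culture and 12 and 20 after it in wild type and mutant libraries, or 5.82 and 3.58 CPM before and 8.73 and 5.98 CPM after. The fold after over before was 1.5 (0.697 to 3.03) in wild type and 1.67 (0.908 to 3.0) in mutant cells. Because background was lower after culture, its counts were 8.22 and 4.57 times background after culture against 1.61 and 1.46 times before it, and with background subtracted the folds were 3.49 (1.09 to 11.1) and 4.16 (1.22 to 14.2). It was not called in either form.

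Gp9 had 2 and 9 counts before culture and 0 and 5 after it, at most 3.52 times its background. Gp1bb had 7 and 17 counts before and 0 and 2 after, never above the background of its full exon length. That comparison is uncertain. Of its exonic bases, 1902 are shared on the same strand with Sept5, so that read pairs there belong to more than 1 gene. If such pairs were left uncounted, this background is too high for Gp1bb. Gp6, the collagen receptor GPVI, had 26 and 55 counts before culture, 0.664 and 1.12 times its background, and 0 and 11 after it. With 3 counts in place of 0 it was at least 2.39-fold lower in the cultured wild type library, an interval that reaches past 1. Its background, not scaled for depth, fell from 39.2 to 3.17 counts. After culture, Gp1ba lay above the 95th percentile of the receptor genes in both genotypes and Gp9 in mutant cells, on 5 counts. Gp6 was not detectable above background at this depth, and Gp1bb could not be judged.

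**Figure D2:**
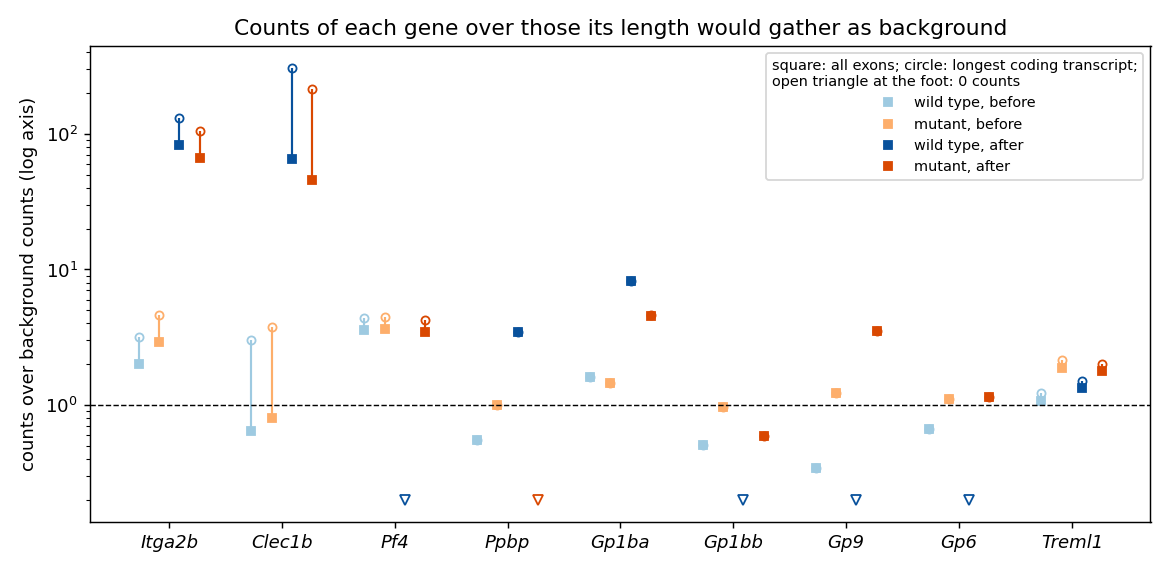
Counts of each gene divided by the counts that background would give for its length (log axis), in the 4 libraries; squares use all annotated exons, circles the longest coding transcript, and the dashed line marks a ratio of 1. After culture Itga2b and Clec1b lie at 45.5 or more, Gp1ba at 8.22 and 4.57, and all other members at 4.22 or less.

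The granule genes were also low. Pf4 had 0 counts in the wild type and 4 in the mutant library after culture, where 3 counts correspond to 2.18 and 0.897 CPM. The 4 counts were 3.44 times background and above the 95th percentile of the receptor genes. Ppbp, which encodes the precursor of another platelet chemokine and lies next to Pf4 on chromosome 5, had 4 and 9 counts before culture, at or below its background, and 2 and 0 after it, where background would give 0.582 and 1.74. Treml1, a receptor stored in alpha granules, had 10 and 22 counts before culture and 1 and 4 after it, 1.07 to 1.88 times its background in all 4 libraries. A level below about 3 counts would not be seen in these libraries, so these counts do not show that the genes are silent.

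Between genotypes, no member was called in either state. Before culture, 6 members passed the count minimum, and 0 were called, where 0.0158% of all genes tested had a call upward and 0.0475% a call downward in mutant cells. After culture, 3 members passed and 0 were called, where 0.244% of all genes were called higher and 0.0731% lower. At shares this low, 0 calls would be likely for any few genes, so these counts do not tell whether the deletion alters the members. The fold of mutant over wild type was, for Itga2b, 0.978 (0.729 to 1.32) before culture and 0.994 (0.854 to 1.16) after it. For Clec1b the folds were 0.836 (0.475 to 1.5) and 0.854 (0.713 to 1.03). Gp1ba stood at 0.615 (0.362 to 1.05) and 0.685 (0.319 to 1.54). All 6 intervals hold 1. They cover counting error only, and 1 litter pool a genotype gives no measure of the spread between litters.

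The genotype fold after culture divided by that before it was 1.02 (0.724 to 1.42) for Itga2b, 1.02 (0.552 to 1.86) for Clec1b and 1.11 (0.429 to 2.95) for Gp1ba. The culture fold was thus within counting error of the same size in both genotypes. A difference of up to about these bounds would not have been seen. Before culture the fold of mutant over wild type for Pf4 was 0.700 (0.355 to 1.40), Gp6 1.14 (0.705 to 1.90) and Treml1 1.19 (0.541 to 2.81). The folds of Ppbp, Gp1bb and Gp9 rested on fewer than 20 counts in each library.

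**Figure D3:**
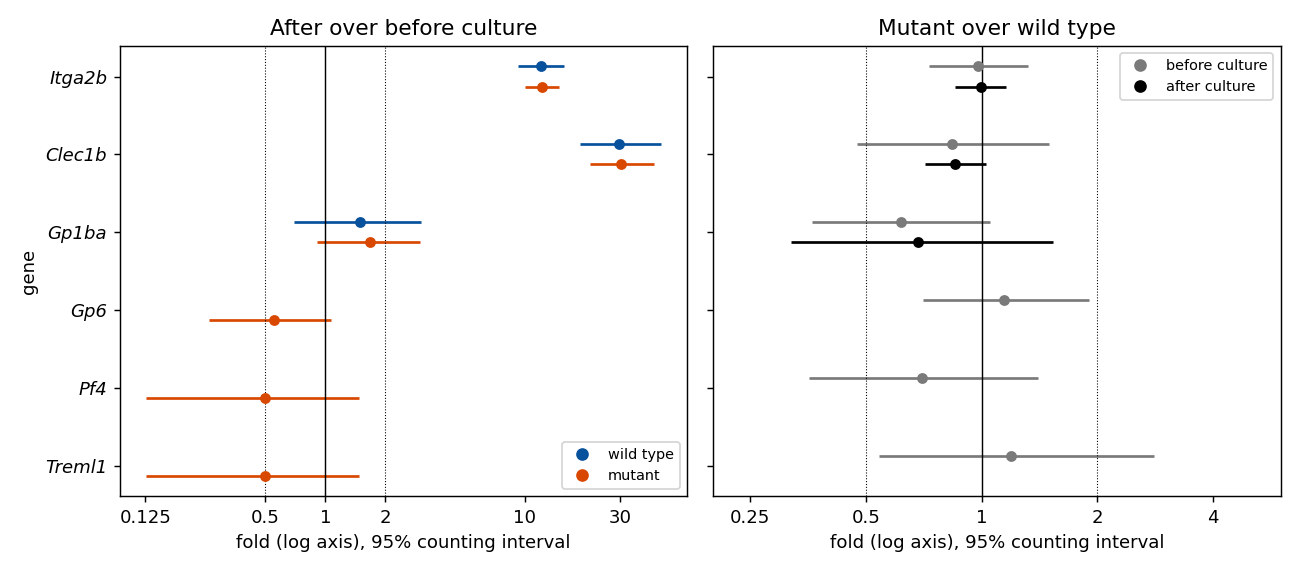
Folds (log axis) with 95% counting intervals for the members that passed the count minimum and had a count in both libraries, after over before culture in each genotype (left) and mutant over wild type in each state (right); dotted lines mark 2-fold. Only Itga2b and Clec1b lie wholly beyond 2-fold, after culture, and every genotype interval holds 1.

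Other genes of megakaryocytes and platelets were split as well. Of 26 listed, 25 were found, and 23 passed the count minimum in the wild type culture comparison, with 4 called higher and 1 lower. In mutant cells 24 passed, with 5 called higher and 1 lower. Over all genes tested, 8.17% were called higher and 5.77% lower in wild type cells, and 5.19% and 3.62% in mutant cells. Itgb3, the beta3 chain with which alphaIIb forms the fibrinogen receptor and which endothelium also pairs with the alphaV chain, had 98 and 179 counts before culture and 219 and 486 after it in wild type and mutant. Its fold was 8.10 (6.36 to 10.4) in wild type and 7.48 (6.29 to 8.93) in mutant cells. Per kb of the longest coding transcript, Itgb3 stood at 0.798 and 0.806 times the level of Itga2b before culture and at 0.538 and 0.494 times after it.

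Ptgs1, the cyclooxygenase that makes the prostaglandin precursor in platelets and endothelium, had folds of 15.9 (12.2 to 21.0) and 12.6 (10.5 to 15.2). Selp, P-selectin of platelet granules and of endothelial storage granules, had folds of 7.73 (5.76 to 10.5) and 6.86 (5.52 to 8.59). Thbs1, thrombospondin, stood at 2.87 (2.65 to 3.11) and 2.17 (2.06 to 2.29), and Plek, pleckstrin of blood cells, was called higher in mutant cells at 2.87 (2.15 to 3.82) and stood at 2.19 (1.45 to 3.27) in wild type cells. The gene called lower in both was Vwf, von Willebrand factor of endothelium and platelets, with 701 and 1775 counts before culture and 72 and 206 after it, folds of 0.372 (0.288 to 0.475) and 0.320 (0.275 to 0.370). The median log2 fold of the passing genes of the list was -1.16 in wild type and -0.11 in mutant cells, also with genes at 0 set to their bound, against -0.04 and -0.10 over all genes tested.

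Of the 25 genes found, 6 and 9 lay above the 95th percentile of the receptor genes before culture in wild type and mutant, and 10 and 13 after it. That mark lay near the middle of all genes, as given above, so nothing is read from these counts. Among those above it in both cultured libraries, Plek had 41 and 103 counts, 17.0 and 14.3 times its background, and Nbeal2, a gene needed for alpha granules, 153 and 439 counts, 29.8 and 28.5 times. Other genes of the list had few counts after culture. Gp5, the remaining chain of the von Willebrand factor receptor, had 20 and 31 counts before culture and 1 in each library after it. Tubb1, the platelet tubulin, had 51 and 77 before and 2 and 13 after, and Rgs18 27 and 25 before and 0 and 4 after. None of these 3 genes was called. Over all exons, the counts after culture were 0.847 and 0.283 times background for Gp5 and 0 and 1.22 for Rgs18, but 2.65 and 5.74 for Tubb1. Between genotypes no gene of the list was called before culture, with 24 passing, or after it, with 15 passing. Nearly all genes were likewise not called, at the shares given above.

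**Figure D4:**
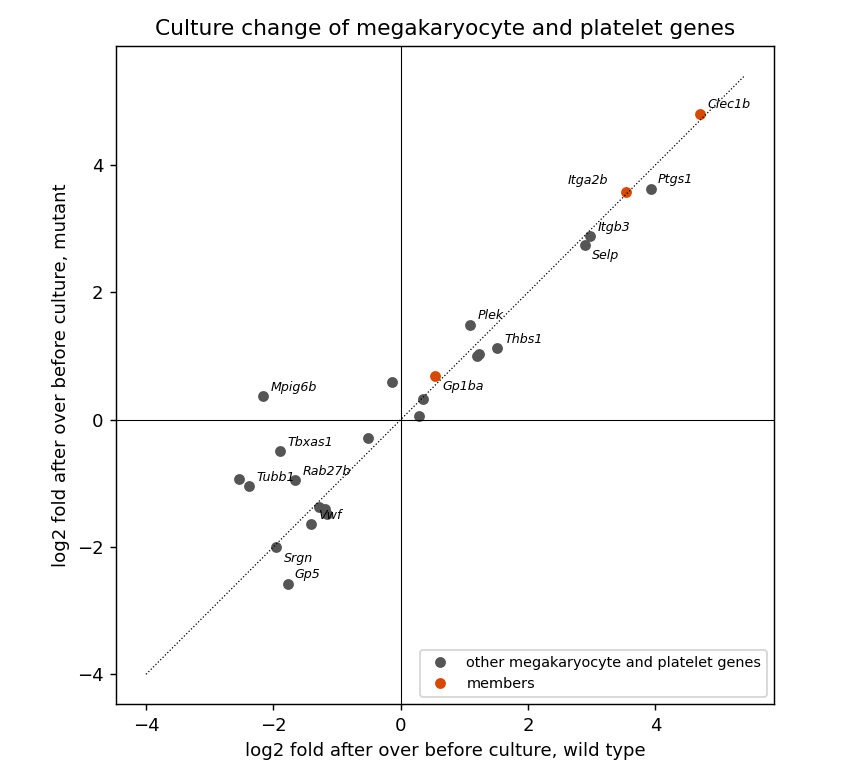
Log2 fold after over before culture in wild type (horizontal) and mutant cells (vertical) for members and other megakaryocyte and platelet genes that passed the count minimum in both comparisons with a count in all 4 libraries; the dotted line marks equal folds. Clec1b, Itga2b, Ptgs1, Itgb3 and Selp lie at the upper right, and Gp5 and Vwf below 0 in both; both axes share no library.

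Of 14 transcription factors of the lineage, 12 lay above the 95th percentile of the receptor genes in each cultured library, against 9 and 10 before culture in wild type and mutant. Many of all genes lie above this mark as well, as given above. Of these 14, 13 passed in wild type cells, with 3 called higher and 0 lower, and 14 in mutant cells, with 2 higher and 1 lower. The shares over all genes tested were 8.17% higher and 5.77% lower in wild type and 5.19% and 3.62% in mutant cells. Zfpm1, the GATA cofactor FOG1, had folds of 5.11 (4.14 to 6.32) and 4.52 (3.95 to 5.18), and Fli1, an ETS factor of endothelium and megakaryocytes, 2.81 (2.46 to 3.19) and 2.79 (2.55 to 3.06). Ldb1, a bridging protein of GATA complexes, was called higher in wild type cells at 2.63 (2.28 to 3.05), and Lmo2, its partner, lower in mutant cells at 0.418 (0.359 to 0.484). Gata2 stood at 0.890 (0.701 to 1.12) and 0.651 (0.556 to 0.759). Gata1, which is required for megakaryocyte maturation, had 25 and 38 counts before culture and 2 and 4 after it, 1.02 to 1.87 times its background over all exons. Nfe2, which is needed for platelet release, had 22 and 38 counts before and 7 and 4 after, 4.36 and 0.831 times its background. Gfi1b, a repressor needed for megakaryocyte and red cell formation, had 17 and 42 counts before and 7 and 18 after, 7.12 and 6.11 times its background after culture, with folds of 1.49 (0.523 to 3.79) and 1.18 (0.640 to 2.10), and was not called. The list's median log2 fold was 0.99 in wild type and 0.67 in mutant cells. Between genotypes, 0 of 14 were called before culture and 0 of 11 after it, as with nearly all genes.

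Of 12 genes that signal with CLEC-2 and GPVI, counting the ligand podoplanin, 11 passed in each culture comparison. In wild type cells 1 was called higher and 2 lower, and in mutant cells 1 higher and 1 lower. The shares over all genes tested were 8.17% higher and 5.77% lower in wild type and 5.19% and 3.62% in mutant cells. Nothing about the list is read from calls this few. Pdpn, the gene of the ligand, was at least 40.0-fold lower after culture in wild type cells with 3 counts in place of 0 and 41.5-fold lower (21.0 to 96.4) in mutant cells, opposite in direction to Clec1b in the same libraries. Fyn, a Src family kinase, stood at 2.98 (2.70 to 3.28) and 2.79 (2.62 to 2.98). Syk, the kinase that CLEC-2 recruits, had 126 and 190 counts before culture and 13 and 41 after, folds of 0.374 (0.194 to 0.663) and 0.595 (0.413 to 0.837), and was not called. Lat, an adaptor of platelets and T cells, was called lower in wild type cells on 1 count after culture against 66. Between genotypes 0 of 11 genes were called before culture and 0 of 8 after it, as with nearly all genes.

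Clec1b lies in a cluster of C-type lectin receptor genes on chromosome 6, and its nearest counted neighbours were looked up after its values were seen. Clec9a, the next gene and a receptor of dendritic cells, had 35 and 44 counts before culture and 59 and 188 after it. Its folds were 6.11 (3.96 to 9.57) in wild type and 11.8 (8.44 to 16.7) in mutant cells, both called. Clec1b and Clec9a share 184 exonic bases on the same strand in GENCODE through a retained-intron transcript of Clec1b, and read pairs there could come from either gene. Clec1a, one gene further, had folds of 0.906 (0.560 to 1.42) and 0.882 (0.640 to 1.2). Clec12b, Clec12a, Cd69 and Clec7a had between 2 and 14 counts after culture and were not called. Of the 6 genes nearest to Itga2b, Grn, a lysosomal growth factor gene, was called higher in both genotypes, at 4.72 (4.17 to 5.34) and 2.73 (2.51 to 2.97), and Slc25a39 and Fam171a2 in wild type cells.

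**Figure D5:**
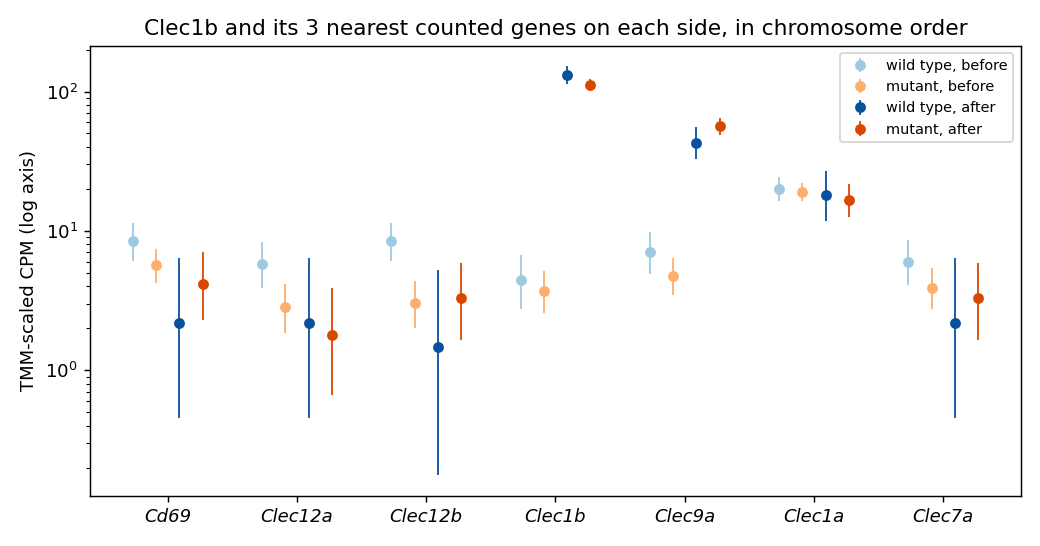
TMM-scaled CPM (log axis) of Clec1b and its 3 nearest counted genes on each side, in chromosome order, 1 point per library with exact Poisson 95% intervals. Clec1b and Clec9a are higher in both cultured libraries, and Clec1a is at 16.7 to 20.1 CPM in all 4.

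Likeness of pattern was measured as the Euclidean distance between the 4 log2 levels, each gene centred on its mean, over 13549 other genes with at least 100 counts in all. Predicted genes (Gm and Rik symbols) and mitochondrial, ribosomal protein and small RNA symbols were left out. Only 4 values per gene set genes apart poorly: 50 genes lay within 0.5 of Itga2b and 9 within 0.5 of Clec1b. Nearest to Itga2b were St3gal4, a sialyltransferase, at 0.12, Masp1, a protease of the lectin pathway of complement, at 0.13, Mical2, an actin-oxidising enzyme, at 0.15, Ddx58, the RNA sensor RIG-I, at 0.16, and Parp14 at 0.18. Nearest to Clec1b were Iigp1, an interferon-induced GTPase, at 0.19, Tspan7, a tetraspanin, at 0.22, Gpr182, a chemokine-scavenging receptor of lymphatic and sinusoidal endothelium, at 0.27, Acer2, a ceramidase, at 0.30, and Ifi44, an interferon-induced gene, at 0.37. Clec1b ranked 212 from Itga2b, and Itgb3 ranked 77.

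Markers of other cells were set beside the levels of Itga2b and Clec1b, and their part in them was not tested. Culture calls in these lists stand against 8.17% higher and 5.77% lower over all genes in wild type cells, and 5.19% and 3.62% in mutant cells. The 9 genes of sinusoidal endothelium summed to 625 and 600 CPM before culture and 5670 and 5524 CPM after it in wild type and mutant, with 7 called higher and 0 lower in each genotype, Cd36 at 16.8 (15.0 to 18.9) and 16.0 (14.6 to 17.6) among them. The 10 pan-endothelial genes summed to 4064 and 4335 CPM before and 12874 and 11744 CPM after, with 8 and 7 called higher. The 7 lymphatic genes summed to 7590 and 7177 CPM before and 7517 and 6324 CPM after, with 4 called lower in each genotype, and 2 called higher in wild type (Lyve1 and Flt4) and 1 in mutant cells (Lyve1). Lyve1 stood at 1072 and 890 CPM before and 3523 and 2742 CPM after. The 8 pan-leukocyte genes summed to 130 and 133 CPM before and 242 and 263 CPM after, most of it Lcp1, with 270 and 607 counts after culture, while Ptprc, which encodes CD45, had 6 and 26 counts, 0.610 and 0.881 times its background over all exons and 2.20 and 3.18 times over its longest coding transcript, and Coro1a had 0 in wild type cells. Lcp1 was called higher in both genotypes and Hcls1 in mutant cells, where Laptm5 was called lower.

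The other blood lists differed from each other, and their calls stand against the same shares over all genes. The 8 genes of blood progenitors summed to 174 and 187 CPM before and 174 and 205 CPM after. They held 239 and 687 counts after culture, where background would give 22.1 and 66.4. Cd34 and Kit held the most of these counts. Only 3 and 2 of the 8 lay above the 95th percentile of the receptor genes after culture, as before it. Of the 8, 0 were called higher and 1 lower in each genotype, Ikzf1 in wild type and Myb in mutant cells. The 8 erythroid genes summed to 23 and 89 counts after culture, where background would give 7.98 and 23.9. Of these 8, 2 and 4 lay above the 95th percentile of the receptor genes after culture. The globins Hbb-y and Hbb-bh1 were at 0 in the wild type library, and 0 erythroid genes were called. The 8 macrophage genes summed to 33 and 100 counts after culture, where background would give 11.1 and 33.2. Of these 8, 2 and 3 lay above that mark. C1qa was at 0 in the wild type library, and Csf1r was called lower in wild type cells. The 7 mast cell genes summed to 50.4 and 71.6 CPM before and 126 and 15.3 CPM after, with 2 called higher in wild type and 3 lower in mutant cells. The 8 stromal genes summed to 2418 and 3831 CPM before and 1322 and 1167 CPM after, with 4 called lower in each genotype, and 2 called higher in wild type (Cxcl12 and Adipoq) and 1 in mutant cells (Cxcl12).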

How the data were processed

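RNA was measured in 4 libraries, 1 for each genotype before and after culture, prepared with a stranded kit for total RNA; per the labels' protocols, both ends were sequenced at a read length of 75. The values deposited by the authors are counts of read pairs per gene symbol, with no normalization. Tools named in the submitters' processing notes are bcl2fastq, STAR and HTSeq 0.11.2 on mm10; duplicate removal with sambamba is stated by the names of the deposited tables. The sources used here do not give the annotation, the strand setting or other versions. HTSeq's summary classes were left out of totals. Read pairs in no gene were 20.0% to 66.5% of all pairs, pairs not aligned 21.4% to 67.6%, and gene counts 7.94% to 10.5%.

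Counts were scaled with TMM in edgeR 4.0.16 (R 4.3.3), with factors of 1.25 and 1.16 before culture and 0.811 and 0.851 after it for wild type and mutant. A fold is a ratio of scaled levels with its exact Clopper-Pearson 95% interval, and a ratio of folds has the exact conditional interval of the odds ratio. Background-subtracted folds have an approximate log-scale interval. Without molecular identifiers, read pairs need not be separate molecules, so all intervals cover counting error only. List medians use log2 folds with a prior count of 2. Exon lengths came from GENCODE vM21 on GRCm38, the assembly of mm10, for 98.0% of symbols, with older symbols matched through RefSeq, so that AU023871 stands for Mpig6b. A model with genotype and culture as additive terms was not run: the members were chosen on the culture contrast, and both libraries of a genotype come from 1 litter pool. The members and all 12 other lists were chosen with earlier results of these data known. All 9 members were named; from each other list, up to 4 called genes with the most counts, and a fixed set with Itgb3, Gp5, Vwf, Pdpn, Gata1, Gata2, Ptprc and Lyve1; Plek, Selp, Nbeal2, Gfi1b, Tubb1, Rgs18, Nfe2, Syk, Coro1a, genes named for lying at 0 and chromosome neighbours were named after their values were seen.

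Alternatives were size factors of DESeq2 1.42.0, total gene counts, a minimum of 10 counts or 1 count, background subtracted with and without rescaling, and a call on the fold alone.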

Additional observations from a re-analysis of the deposited data

Results flagged for a closer look

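Among marker genes listed beside the members, 3 moved in opposite directions with culture in the 2 genotypes, each with an interval that leaves out 1 on the TMM scale; with 1 library a group the difference was not tested. The mast cell protease gene Cpa3 had a fold after over before culture of 3.42 in wild type and 0.0576 in mutant cells, and the chymase gene Cma1 2.64 and 0.143. Mrc1, a scavenger receptor of macrophages and sinusoidal endothelium, stood at 0.853 in wild type and 1.09 in mutant cells, but its wild type interval reached 1.01 with the size factors of DESeq2, and it stood at 0.553 and 0.800, both below 1, on total gene counts.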

How the results depend on the processing

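The libraries before and after culture of a genotype come from the same sort, but the labels give no replicate numbers, and a model of genotype and culture over the 4 libraries was not run. The 2 members called higher after culture, Itga2b and Clec1b, were called in both genotypes under every alternative run, and no member was called between genotypes under any. The exception in count is Gp6, called lower after culture of wild type cells on total gene counts and on the fold alone. Itga2b and Clec1b were picked on the culture contrast, so their calls under the alternatives support nothing. For Clec1b, the calls with background over all exons subtracted rest on counts before culture that were set to 3. Members above the 95th percentile of receptor genes rose from 1 to 3 in each library before culture with the longest coding transcript as length, a choice added after seeing the data. Counts of all genes called moved by over 1.5 times as follows. Before culture the genotypes gave 12 genes, but 19 on total gene counts (2 higher, 17 lower), 21 with at least 10 counts, 23 with no filter and 506 on the fold alone. After culture they gave 39 genes, but 15 with background subtracted, 14 with background subtracted and rescaled, 15 with background per longest coding transcript and 872 on the fold alone. Culture gave 2390 genes in wild type cells, but 1483 with background subtracted and rescaled and 8148 on the fold alone, and 1656 in mutant cells, but 5817 on the fold alone. With background subtracted and scaling unchanged, the split of all genes after culture of wild type cells was 2161 higher and 222 lower, of mutant cells 1318 and 442, between genotypes before culture 10 and 2, and after it 2 and 13. The cause of these moves was not tested. Scaling on total gene counts moved all log2 culture folds by -0.62 in wild type and -0.45 in mutant cells, and the fold of Itga2b to 7.80 and 8.95. No subtracted fold of Clec1b over all exons is given, since its counts before culture are below that background and were set to 3. The wild type library after culture, with the fewest counts, limits all statements on the low members.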
